A study of Mus musculus with 4 samples.

Results

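S phase CD8+ T cells (Tc) were described from single-cell RNA sequencing of donor Tc in the spleens of leukemia-bearing mice. A kept cell had at least 500 genes, at least 1000 unique molecular identifiers (UMIs, one per captured RNA molecule) and at most 10% mitochondrial UMIs. A CD8+ Tc had a UMI of Cd3d, Cd3e or Cd3g and of Cd8a or Cd8b1, and none of Cd4 or of the erythroid factor Klf1. An S phase cell was a CD8+ Tc with a UMI in at least 3 of the 5 genes Mcm3, Mcm5, Dtl, Ung and Lig1 and none of the mitotic cyclin gene Ccnb2. There were 364 such cells among 4267 CD8+ Tc, or 8.53%, and among 11632 kept cells of 15784 barcodes.

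The study compared BALB/c recipients of bone marrow (BM) and T cells from C57BL/6 donors of 2 genotypes. As the study describes it, the BM had the genotype of the T cells, so the genotype of the graft differed together with that of the Tc. The recipients carried the BALB/c leukemia line WEHI-3B (10000 cells given after total body irradiation) and received 200000 donor T cells on day 2, and splenic T cells were taken on day 23. The 2 libraries labelled Havcr2fl/fl;E8icre/+ are given as T cells with both Havcr2 alleles floxed and a Cre driven by the E8i element of Cd8a, which acts in CD8+ cells. The 2 libraries labelled Havcr2fl/fl are given as T cells with the same floxed alleles and no Cre. Havcr2 encodes TIM-3, an inhibitory receptor of T cells, and its level in the first Havcr2fl/fl;E8icre/+ library went against that label, as the values below show. Irradiation, the leukemia and the floxed donor alleles were shared by all 4 libraries, so there was no group without leukemia and none with an unfloxed gene. The labels give no age, while the study's methods give an age range in weeks for its mice as a whole. Each library is 1 recipient mouse, so p-values by genotype measure the spread between 2 mice per genotype and those between classes of cells the spread of within-mouse differences over 4 mice. The rule does not separate donor from recipient T cells: the donor H2-Kb antibody tag was used only in an alternative, and 1 of the 364 S phase cells lay under its limit.

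A cell that divides copies its genome once, in S phase. The MCM helicase is loaded on origins of replication beforehand, it unwinds DNA at the forks, DNA polymerases held by the PCNA ring copy each strand, and ligase 1 joins the short pieces of the lagging strand. E2F transcription factors switch on the genes for these proteins and for the enzymes that make deoxynucleotides, while histones are made during the copying itself and the genes of mitosis follow later. CD8+ Tc that meet antigen divide fast, and in lasting responses the dividing pool is fed by stem-like cells that express Tcf7 and Slamf6, which give rise to effector and exhausted cells.

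E2F proteins bind promoters of many S phase genes, so 4 forms of the 8-base core (TTTGGCGC, TTTCCCGC, TTTCGCGC and TTTGCCGC) were searched on both strands of RefSeq promoters of build GRCm38.p6, from 250 bases before to 50 bases after each gene's start. A match was found for 704 of the 27025 genes with a promoter entry, or 2.61%. It was found for 4 of the 5 rule genes (all but Ung), for 7 of 15 genes of replication licensing and origin firing with an entry, for 8 of 23 of fork and DNA synthesis, for 7 of 14 of G1 to S control, for 4 of 14 of replication checkpoint and repair, for 1 of 20 of nucleotide synthesis and for 0 of 23 of G2 and mitosis. No test was made of these counts, and a match describes letters and not a site of binding. Stretches of 100 bases are shown for 2 rule genes and for Cdc6 and E2f7, which stood high in S phase cells below. They read 5′ to 3′ on the gene's own strand, and capitals mark the matches.
Mcm5: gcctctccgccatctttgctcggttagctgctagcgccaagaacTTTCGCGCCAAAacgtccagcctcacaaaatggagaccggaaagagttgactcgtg
Dtl: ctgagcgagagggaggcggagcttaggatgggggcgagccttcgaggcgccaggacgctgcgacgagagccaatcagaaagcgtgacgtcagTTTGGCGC
Cdc6: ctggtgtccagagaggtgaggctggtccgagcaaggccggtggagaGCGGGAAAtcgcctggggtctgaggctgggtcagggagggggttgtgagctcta
E2f7: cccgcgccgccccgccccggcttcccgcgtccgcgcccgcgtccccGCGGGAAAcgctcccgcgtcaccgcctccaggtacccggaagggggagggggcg
The Mcm5 stretch (chr8:75109312-75109411, plus strand) holds TTTCGCGC and, overlapping it on the other strand, TTTGGCGC, with the first base 153 bases before the start. The Dtl stretch (chr1:191575545-191575644, minus strand) ends at the base before the start and holds TTTGGCGC from 8 bases before it. The Cdc6 stretch (chr11:98907967-98908066, plus strand) and the E2f7 stretch (chr10:110745195-110745294, plus strand) each hold TTTCCCGC on the other strand, 138 and 198 bases before the start.

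The 4 libraries held 38386626, 31449644, 17693991 and 55045903 gene UMIs over 4328, 3208, 1511 and 6737 barcodes. Here and below, values of the 4 libraries stand in the order Havcr2fl/fl;E8icre/+ replicates 1 and 2, then Havcr2fl/fl replicates 1 and 2. The S phase cells numbered 175, 64, 26 and 99 and held 1605752, 787638, 359292 and 637676 gene UMIs in sum. Havcr2fl/fl replicate 1 therefore gave the fewest cells and the thinnest sum. No barcode of an S phase cell was a kept cell of another library, while 17 barcodes were shared among all kept cells.

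The label was checked against genes that the rule did not use. Among the 364 S phase cells, 91.5% had a UMI of Pcna, 74.2% of Top2a and 64.8% of Mki67, which mark dividing cells. In the 2450 CD8+ Tc with none of the 5 rule genes and no Ccnb2, these shares were 32.9%, 17.7% and 15.4%. Those cells were shallower, with a median of 3975 UMIs against 8503, and the shares were not matched for depth. The T cell receptor constant genes Trac and Trbc2 were found in 94.8% and 99.7% of S phase cells, given here without a background share. Of the rule genes, Mcm3 was found in 96.2%, Lig1 in 92.03%, Mcm5 in 89.8%, Dtl in 68.7% and Ung in 37.1%, so most members were chosen through Mcm3, Mcm5 and Lig1. All 5 genes were found in 82 cells. A further 61 cells (16.8%) had neither Mki67 nor Top2a, with a median of 7119 UMIs against 9327 in the 203 cells with both.

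The cells just outside and just inside the threshold formed a gradient. With 2 of the 5 genes and no Ccnb2 there were 207 cells, of which 66.7% had Pcna, 27.1% Mki67 and 6.28% Cdc6. With 3 genes there were 141 cells, of which 85.8% had Pcna, 55.3% Mki67 and 24.8% Cdc6. With all 5 genes the shares were 98.8%, 73.2% and 53.7%, and the median UMIs per cell went from 5932 with 2 genes to 7491 with 3 and 10089.5 with 5. Another 209 CD8+ Tc had at least 3 of the 5 genes together with Ccnb2, and 94.7% of these had Mki67. The rule thus separates a range and not a distinct population, and cells with more UMIs pass it more easily.

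The other cycling cells (571, 13.4% of CD8+ Tc) were not S phase cells and had a UMI in at least 2 of Mki67, Top2a and Ccnb2. The not cycling cells (2217, 52.0%) had none of these 3 genes and at most 1 of the 5 rule genes. The remaining 1115 cells were in between and entered no comparison. Mean UMIs per cell were 2.22, 2.09, 2.21 and 2.27 times higher in S phase than in not cycling cells of the same library, and 0.875, 0.858, 0.803 and 0.921 times those of other cycling cells. This gap in depth bears on every comparison below, so levels are given as counts relative to the TMM-adjusted UMIs of each class and library (CPM), as UMIs per cell where the 2 scales part, and as shares of cells after thinning each cell to 2000 UMIs.

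S phase cells made up 11.3% of the CD8+ Tc in the library labelled Havcr2fl/fl;E8icre/+ replicate 1 (95% Wilson interval 9.86 to 13.03) and 6.67% in replicate 2 (5.26 to 8.42). They made up 5.27% in Havcr2fl/fl replicate 1 (3.62 to 7.62) and 7.78% in replicate 2 (6.43 to 9.39). The libraries labelled Havcr2fl/fl;E8icre/+ held both the highest value and the second lowest, so the groups overlapped. The means were 9.01% ± 3.31 and 6.53% ± 1.77 (SD, n = 2 each), a log2 ratio of 0.46 with a two-sided exact permutation p of 0.667, where 2 against 2 cannot go below 0.333. The log2 ratio was 0.03 without the first of these libraries. When the gate was applied after thinning to 2000 UMIs, the shares were 4.10%, 1.89%, 2.08% and 2.57%. The intervals cover counting error only.

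**Figure D1:**
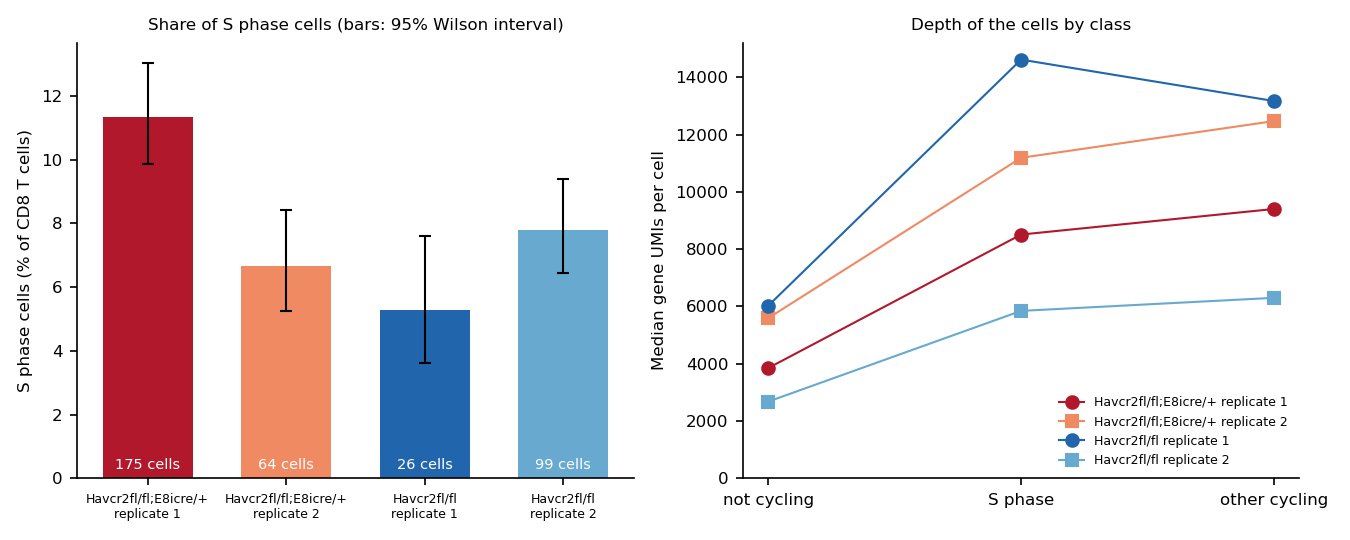
Left, share of CD8+ Tc in S phase (%) in each of the 4 libraries, with 95% Wilson intervals. Right, median UMIs per cell by class and library. The Havcr2fl/fl;E8icre/+ libraries stand at 11.3% and 6.67% and the Havcr2fl/fl libraries at 5.27% and 7.78%, and in every library not cycling cells are the shallowest class.

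Against not cycling cells, S phase cells carried more RNA of replication genes and less, in CPM, of genes of stem-like and resting T cells. Of 8855 genes counted, 1744 (19.7%) were higher and 2155 (24.3%) lower at an adjusted p under 0.05, so 44.0% were called in all and 22.0% and 29.8% were higher and lower in 4 of 4 libraries. These are edgeR quasi-likelihood tests on summed counts with the mouse as a block and Benjamini-Hochberg adjustment. DESeq2 gave 1414 higher and 953 lower. The rule chose the cells on replication genes, so the genes of the cell cycle are given below as levels with no test, and a share of a list near these backgrounds says nothing about that list.

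Genes that load and fire origins were higher in 4 of 4 libraries for 19 of 20 counted, with a median log2 difference of 2.83 (0.74 to 5.27). Cdc6, which loads the MCM helicase on origins, stood at 66.6, 53.0, 35.6 and 53.5 CPM in S phase cells against 0.957, 0.323, 0.622 and 4.11 in not cycling cells (log2 difference 5.27 ± 0.35, SE). Mcm10, which starts unwinding, differed by 5.22, and Clspn, which ties the fork to the checkpoint, and Cdc45, a part of the active helicase, by 4.20 and 4.14. No S phase library overlapped a not cycling one for Cdc6.

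All 26 counted genes of fork and DNA synthesis were higher in 4 of 4 libraries, with a median of 2.45. Pcna, the ring that holds polymerases on DNA, stood at 535, 416, 395 and 482 CPM in S phase cells and at 105, 74.3, 97.6 and 114 in not cycling cells (2.25 ± 0.09). Chaf1a, which places histones on new DNA, and Uhrf1, which carries methylation over to the new strand, differed by 4.34 and 4.31. In nucleotide synthesis, 21 of 22 genes were higher in 4 of 4, with a median of 1.60. Rrm2, the regulated subunit of ribonucleotide reductase, stood at 119, 97.2, 52.1 and 186 CPM against 1.91, 1.94, 4.35 and 13.9, and Tk1 and Shmt1, which serve thymidylate supply, differed by 3.41 and 4.82.

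Control genes of the G1 to S step were more mixed, with 17 of 19 higher and 2 lower in 4 of 4 libraries. E2f1, an activating E2F, stood at 67.8, 51.7, 38.4 and 48.8 CPM against 1.28, 1.29, 1.24 and 2.05 (5.16 ± 0.28), and E2f7, a repressing E2F, differed by 6.13 ± 0.47. Among the inhibitors of cyclin-dependent kinases, 2 of 5 counted were higher and 2 lower in 4 of 4. Cdkn1b, which encodes p27, was at 62.4, 79.5, 93.2 and 110 CPM in S phase cells and at 175, 198, 182 and 214 in not cycling cells (log2 difference -1.23 ± 0.11). Cdkn2d was also lower, by -1.16, while Cdkn2a was higher by 1.54.

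Checkpoint and repair genes were higher in 4 of 4 libraries for 16 of 18 counted, with a median of 2.45. Chek1, the kinase that guards stalled forks, differed by 5.79 ± 0.31. Replication-dependent histone genes were higher in 4 of 4 for 28 of 32 counted of 67 listed. Hist1h1b, a linker histone, stood at 1068, 674, 271 and 2291 CPM against 21.4, 19.1, 18.7 and 73.9 (5.06 ± 0.16), with the 2 Havcr2fl/fl libraries holding the lowest and the highest S phase value. Histone genes are near-identical copies and most of their RNA lacks a poly(A) tail, so a level of 1 histone gene in a 3′ library is uncertain. Outside these lists, the 6 genes with the highest log2 differences were Dscc1 (6.50 ± 0.49), Pclaf (6.08 ± 0.15), Stil (5.91), Pbk (4.86), Esco2 (4.86) and Brip1 (4.65). Pclaf binds PCNA, and its levels were 547, 424, 217 and 630 CPM against 6.38, 4.20, 4.35 and 13.9.

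**Figure D2:**
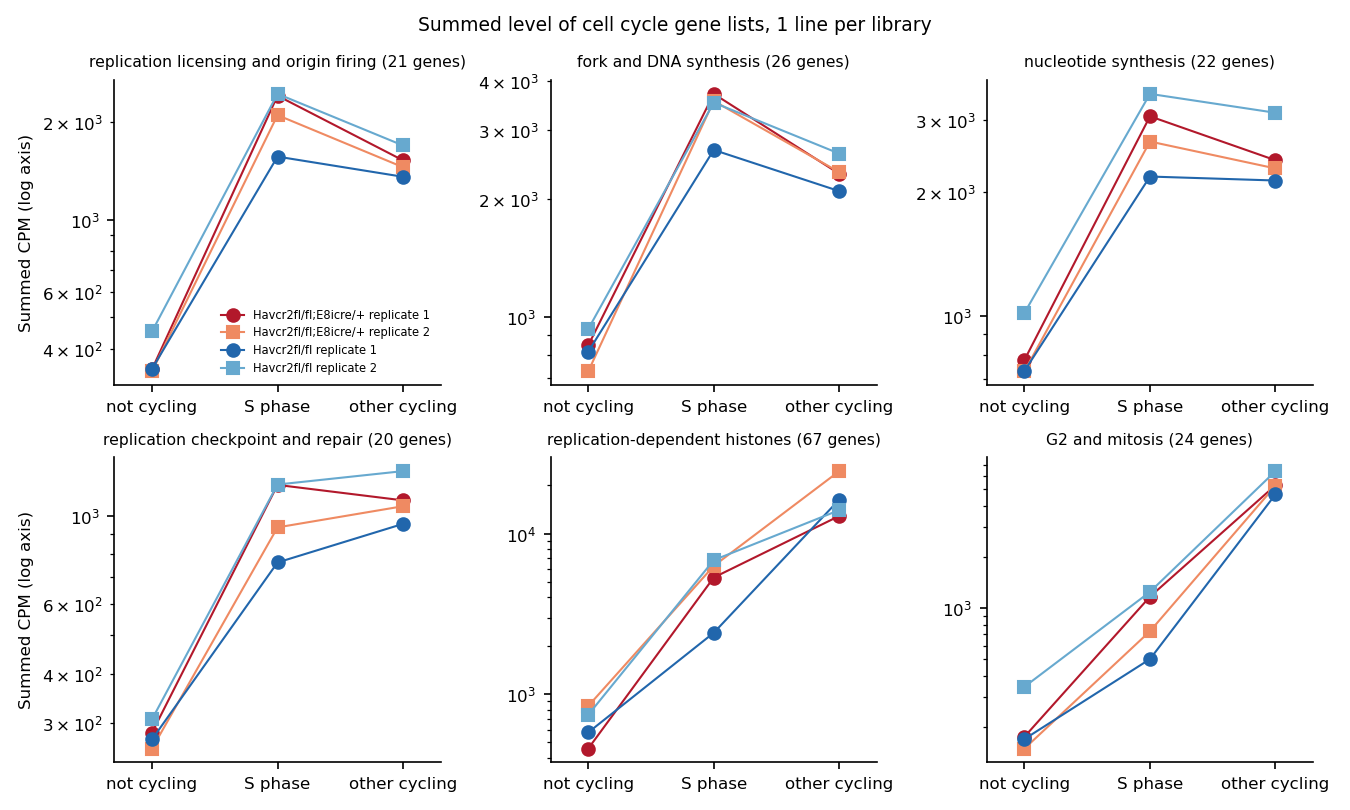
Summed CPM (log axis) of 6 cell cycle gene lists in not cycling, S phase and other cycling CD8+ Tc of each library. The licensing list has its highest mean in S phase cells (2135 CPM against 1509 in other cycling and 371 in not cycling cells), while the G2 and mitosis list has its highest mean in other cycling cells (5409 CPM against 912 and 210).

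S phase cells were also set against other cycling cells, which were not free of S phase genes: 202 of the 209 cells with at least 3 of the 5 rule genes and Ccnb2 belonged to them and made up 35.4% of them. The differences of fork, licensing and histone genes below are therefore against a class that holds such cells. Of 7897 genes counted, 265 (3.36%) were higher and 579 (7.33%) lower in S phase cells at an adjusted p under 0.05, and 11.8% and 18.6% were higher and lower in 4 of 4 libraries. Other cycling cells were chosen by Mki67, Top2a and Ccnb2, which peak after S phase, so here too the cycle genes are given as levels. All 24 counted genes of G2 and mitosis were lower in S phase cells in 4 of 4 libraries, with a median log2 difference of -2.39 (-3.88 to -1.50). Ube2c, which helps to end mitosis, was at 39.2, 27.8, 21.9 and 58.3 CPM against 572, 478, 364 and 743. Ccna2, the cyclin of S phase and G2, was also lower, with 55.3, 32.8, 13.7 and 64.6 CPM against 220, 205, 183 and 221 (-2.20 ± 0.14).

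Replication genes went the other way. Fork genes were higher in 4 of 4 libraries for 23 of 26 and licensing genes for 11 of 21, with medians of 0.58 and 0.52. E2f1 stood at 15.7, 18.0, 19.4 and 16.2 CPM in other cycling cells (log2 difference 1.68 ± 0.20), whereas E2f7 was at 29.4, 24.4, 12.3 and 29.0 CPM there against 30.9, 29.0, 11.0 and 29.9 in S phase cells, and E2f8, another repressing E2F, was at 50.5, 42.9, 13.7 and 40.9 CPM in S phase cells and at 54.3, 48.7, 42.9 and 49.4 in other cycling cells. Mcm2, another part of the helicase, was at 229, 192, 143 and 173 CPM against 104, 93.6, 77.6 and 86.9 (1.04 ± 0.09). Dbf4, which activates the kinase that fires origins, had a log2 difference of -1.13 and was lower in 4 of 4 libraries.

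Histone genes were lower in S phase cells than in other cycling cells for 41 of 43 counted in 4 of 4 libraries, with a median of -1.69. The 67 genes summed to 5325, 6290, 2410 and 6833 CPM in S phase cells, to 12884, 24515, 16292 and 14010 in other cycling cells and to 458, 843, 576 and 743 in not cycling cells. The classes did not overlap. Histones are made while DNA is copied, so the name S phase stands here for cells that pass the rule, and not for all cells that copy DNA. How the copying cells divide between the 2 classes was not tested. Chromatin proteins of dividing cells moved likewise, with 14 of 15 lower in 4 of 4, such as the DNA-bending protein gene Hmgb2 at 1939, 2001, 1340 and 1990 CPM against 4427, 5366, 5068 and 4465. The 6 genes with the highest log2 differences outside the lists were Ccdc80 (1.49), Rnf227 (1.43), Naf1 (1.36), Nefh (1.29), Platr25 (1.25) and Zmynd19 (1.24), and the 6 lowest, given as levels since the classes were chosen on genes of division, were Pif1 (-3.64), Prr11 (-3.22), Arhgap19 (-3.16), Cdkn3 (-3.11), Pimreg (-2.99) and Aspm (-2.82).

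Of 9 stem-like genes counted against not cycling cells, 7 fell and 1 rose, beside 24.3% of all genes lower and 19.7% higher. Their median log2 difference was -2.83 beside -0.11 over all counted genes. Il7r, the interleukin 7 receptor of resting and memory cells, stood at 13.1, 10.1, 30.2 and 34.6 CPM in S phase cells and at 182, 225, 410 and 158 in not cycling cells (-3.52 ± 0.20, edgeR adjusted p = 6.1e-11). Tcf7, which encodes TCF-1, the factor that maintains stem-like T cells, stood at 3.57, 2.52, 13.7 and 33.1 CPM against 95.1, 148, 77.7 and 57.0 (-3.24 ± 0.39, edgeR adjusted p = 1.6e-06). No S phase library reached the lowest not cycling one in either gene. Xcl1, a chemokine for dendritic cells, and Id3 fell by 2.87 and 2.99 on the log2 scale. Myb was the one that rose (1.94).

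These genes were near the floor in S phase cells. Tcf7 rested on 6, 2, 5 and 21 UMIs in 5, 1, 2 and 7 cells, and Il7r on 22, 8, 11 and 22 UMIs. At 2000 UMIs per cell, Tcf7 was found in 1.19% ± 1.27 of S phase cells (SD, n = 4), 5.69% ± 1.02 of other cycling and 11.6% ± 2.2 of not cycling cells, and in 0.0218% of cells without a Cd3 UMI. Il7r was found in 2.65%, 7.12% and 21.1% and Slamf6 in 4.97%, 8.40% and 15.6%. None of the 364 members was too shallow to thin, against 31, 8, 13 and 143 of all CD8+ Tc. With thinned cells, 784 of 5416 genes counted (14.5%) were lower at an adjusted p under 0.05, among them all 6 stem-like genes that were counted.

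Against other cycling cells, 4 of 7 stem-like genes were lower, beside 7.33% of all genes. Slamf6, a marker of exhausted cells that keep dividing capacity, stood at 20.2, 34.1, 38.4 and 34.6 CPM against 55.9, 84.6, 73.5 and 44.3 (-1.11 ± 0.18, edgeR adjusted p = 0.00012). Il7r differed by -1.15 (edgeR adjusted p = 0.00024) and Lef1, a relative of TCF-1, by -1.10 (edgeR adjusted p = 0.003). Tcf7 differed by -1.66 ± 0.39 (edgeR adjusted p = 0.0052) in 3 of 4 libraries, with Havcr2fl/fl replicate 2 going the other way, and this call was lost with DESeq2, with no mouse block and without either Havcr2fl/fl;E8icre/+ library.

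**Figure D3:**
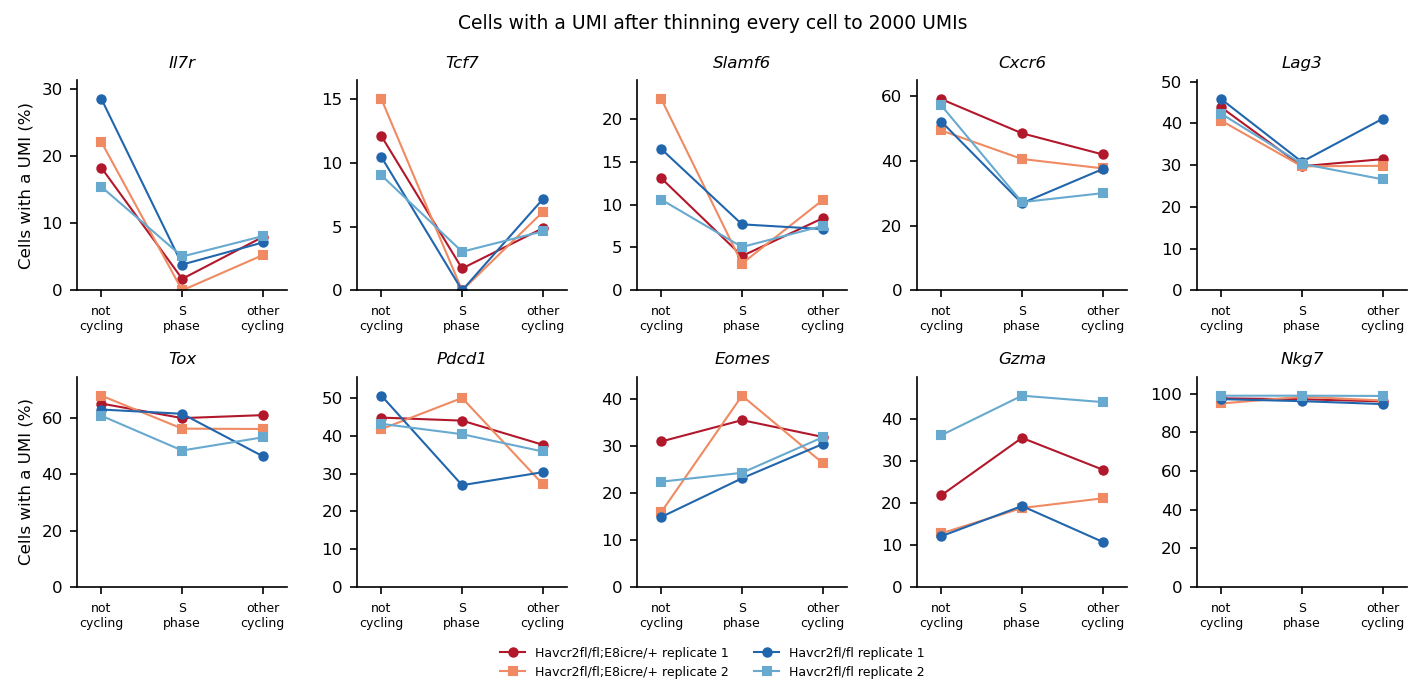
Share of cells (%) with a UMI of 10 T cell state genes after each cell was thinned to 2000 UMIs, one point per library and class. Il7r, Tcf7 and Slamf6 are lowest in S phase cells on average (2.65%, 1.19% and 4.97%), whereas Nkg7, a granule gene, is found in 97.7% of S phase and 97.2% of not cycling cells.

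Genes that hold lymphocytes at rest fell in 10 of 11 counted, with a median of -1.10, beside 24.3% of all genes lower. Btg1, an antiproliferative factor, stood at 247, 294, 307 and 216 CPM in S phase cells against 848, 1003, 914 and 752 in not cycling cells (-1.74 ± 0.08, edgeR adjusted p = 8.5e-12). Pik3ip1, an inhibitor of PI3 kinase, and Txnip, which limits glucose uptake, fell by 2.39 and 1.84 on the log2 scale. Against other cycling cells 5 of 9 were lower with a median of -0.46, beside 7.33% of all genes. Among the 5 was S1pr1, the receptor for leaving lymphoid organs (-1.07 ± 0.21, edgeR adjusted p = 0.0011).

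Growth genes went up. Of 14 nucleolar and MYC-linked genes, 12 rose, and 13 of 14 genes of mitochondrial respiration rose, with medians of 0.95 and 0.64. Of all genes counted, 19.7% were higher and 24.3% lower. Cycs, cytochrome c, was at 297, 305, 263 and 258 CPM against 105, 109, 98.9 and 121 (1.39 ± 0.09, edgeR adjusted p = 7.3e-10), and Nop58, a ribosomal RNA processing factor, rose by 1.44. Of 15 glycolysis genes, 9 rose and 1 fell. Ldha, which makes lactate, was at 610, 543, 504 and 693 CPM against 264, 255, 255 and 299 (1.13 ± 0.08), while Slc2a3, a glucose transporter, fell by 0.63.

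Against other cycling cells, 0 of 15 glycolysis and 0 of 14 respiration genes passed the test, and summed CPM were 4688 ± 428 and 4864 ± 416 for glycolysis and 6575 ± 760 and 6799 ± 723 for respiration (SD, n = 4 libraries). Nucleolar genes still rose in 5 of 13, beside 3.36% of all genes higher. One of them, Nolc1, was at 150, 129, 115 and 117 CPM in S phase cells and at 74.2, 85.3, 81.7 and 94.6 in other cycling cells (0.67 ± 0.12, edgeR adjusted p = 0.00027).

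Of 13 exhaustion genes counted against not cycling cells, 4 fell and none rose, with a median of -0.25, beside 24.3% of all genes lower. Tox, a factor that fixes the exhausted state, was at 516, 531, 411 and 411 CPM against 668, 726, 644 and 539 (-0.46 ± 0.08, edgeR adjusted p = 0.00015). Lag3, an inhibitory receptor, was at 199, 170, 318 and 153 CPM against 355, 310, 361 and 329 (-0.76 ± 0.11, edgeR adjusted p = 1.9e-05). Pdcd1, which encodes PD-1, and Ctla4 fell by 0.51 and 0.86, and the Pdcd1 call was lost with thinned cells and the Ctla4 call with DESeq2 and without Havcr2fl/fl;E8icre/+ replicate 1. With thinned cells 4 of 11 exhaustion genes fell, beside 14.5% of all genes, and the median was 0.02. Tox was found in 56.6% of thinned S phase cells, 54.2% of other cycling and 64.3% of not cycling cells, and in 0.234% of cells without a Cd3 UMI, so most members carried it. Against other cycling cells, 2 of 12 were higher, beside 3.36% of all genes. They were Nr4a2 (0.56, edgeR adjusted p = 0.0013) and Cd160 (0.37, edgeR adjusted p = 0.0041).

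Effector genes fell in 9 of 15 and rose in 1, beside 24.3% of all genes lower and 19.7% higher. Ccl5, a chemokine of effector T cells, stood at 10221, 10098, 11126 and 11031 CPM in S phase cells against 21101, 16035, 18560 and 22986 in not cycling cells, a log2 difference of -0.88. Cx3cr1, a receptor of late effector cells, and Prf1, perforin, fell by 1.43 and 0.89. Shares of thinned cells with a UMI went both ways. Ccl5 was found in 95.8% of S phase and 85.2% of not cycling cells, and the granzyme gene Gzmb in 43.5% and 36.7%. Prf1 was found in 28.4% and 37.0%, and Cx3cr1 in 6.63% and 9.01%. Gzma, a granzyme, was the one that rose (0.45, edgeR adjusted p = 0.0086), with 1460, 1411, 417 and 3579 CPM against 1150, 636, 483 and 2760, lower in Havcr2fl/fl replicate 1. Against other cycling cells Gzma also stood higher in 4 of 4 libraries (0.54 ± 0.08, edgeR adjusted p = 9.9e-06) and Cx3cr1 lower (-1.29 ± 0.19, edgeR adjusted p = 3.4e-05). Ccl5 was higher by 0.39 there but at -0.0095 with thinned cells.

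Activation genes fell in 8 of 12 and rose in 1, and interferon response genes fell in 9 of 11, beside 24.3% of all genes lower. Icos, a costimulatory receptor, was at 29.7, 36.6, 38.4 and 33.1 CPM against 83.6, 117, 97.0 and 84.2 (-1.49 ± 0.13, edgeR adjusted p = 4.3e-08). Tnfrsf9, the costimulatory receptor 4-1BB, was the one that rose (0.69, edgeR adjusted p = 0.001), at 198, 208, 217 and 186 CPM against 138, 83.3, 98.2 and 190, lower in Havcr2fl/fl replicate 2. Ifit1, an antiviral gene, was at 6.54, 7.57, 0 and 1.57 CPM against 27.1, 35.2, 18.7 and 33.4 (-2.51 ± 0.32, edgeR adjusted p = 3.3e-06). With thinned cells, 3 of 8 interferon genes fell, beside 14.5% of all genes.

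**Figure D4:**
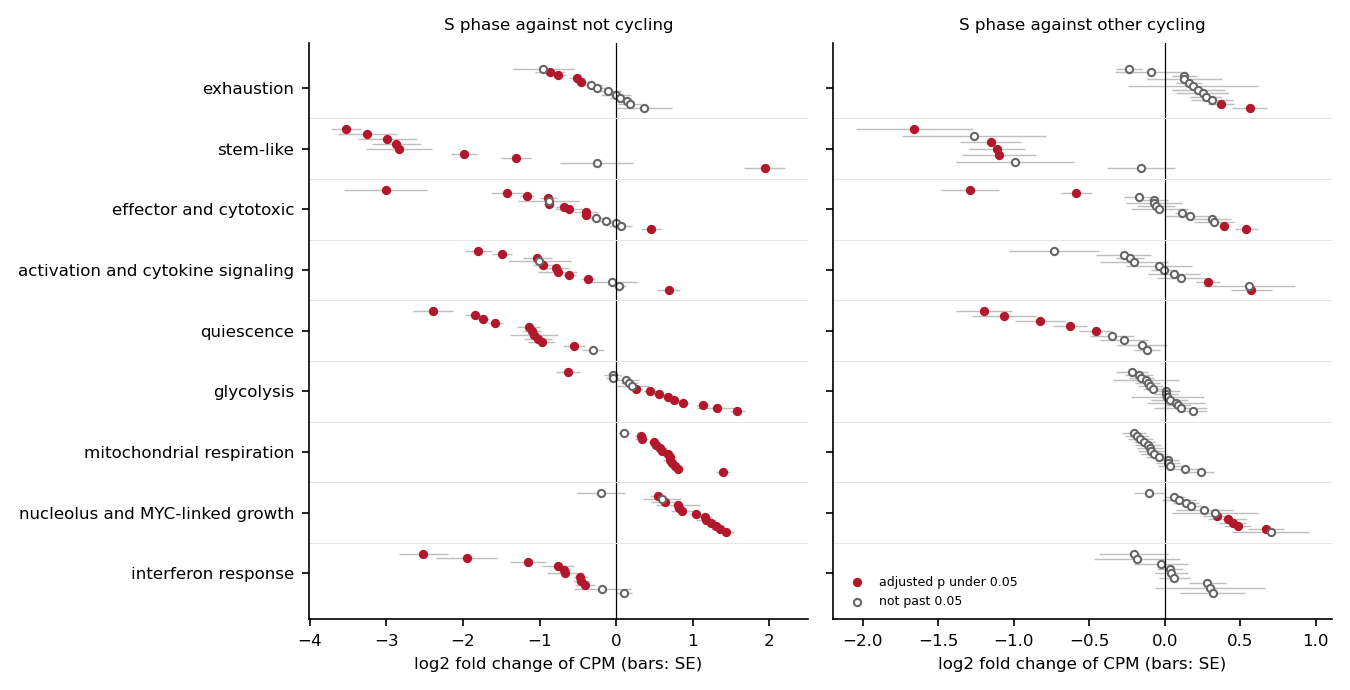
Log2 difference (± SE) of each counted gene of the T cell state lists, for S phase against not cycling cells and for S phase against other cycling cells, with filled red points at an adjusted p under 0.05. Against not cycling cells the stem-like and quiescence lists lie mostly below 0 and respiration and nucleolar genes above it, and against other cycling cells most points lie near 0.

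On the scale of UMIs per cell the lists parted. Since S phase cells held over 2 times the UMIs of not cycling cells, 6914 of 8855 genes (78.1%) had more UMIs per S phase cell in 4 of 4 libraries and 81 (0.915%) had fewer. Fewer UMIs per cell in 4 of 4 libraries were found for 2 of 9 stem-like genes (Il7r and Id3), 3 of 11 quiescence genes (Btg1, Btg2 and Pik3ip1), 2 of 12 activation genes (Icos and Socs1), 1 of 15 effector genes (Tnf), 1 of 11 interferon genes (Ifit1) and 0 of 13 exhaustion genes. More UMIs per cell in 4 of 4 were found for 10 of 13 exhaustion, 9 of 15 effector, 6 of 11 interferon and 5 of 12 activation genes, but for 1 of 9 stem-like and 2 of 11 quiescence genes. Tcf7 averaged 0.034, 0.031, 0.19 and 0.21 UMIs per S phase cell and 0.40, 0.85, 0.48 and 0.16 per not cycling cell, higher in S phase cells of Havcr2fl/fl replicate 2. Il7r averaged 0.224 ± 0.140 UMIs per S phase cell and 1.27 ± 0.93 per not cycling cell. Tox averaged 4.99 ± 1.70 and 3.14 ± 1.22, and Ccl5 112.5 ± 36.5 and 90.7 ± 20.4 (SD, n = 4 libraries). Kdm5b, Slfn5 and Gpr55, which together with S100a8, Il7r and Tcf7 had the 6 lowest log2 differences, also had fewer UMIs per cell in 4 of 4. Against other cycling cells, 4.72% of genes had more and 32.8% fewer UMIs per S phase cell in 4 of 4 libraries, and 4 of 7 stem-like, 7 of 9 quiescence and 10 of 14 respiration genes had fewer. More RNA per cell and more of each cell's RNA captured cannot be told apart here.

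Havcr2 itself was the first check of the genotype labels. In S phase cells it stood at 64.8 CPM in the library labelled Havcr2fl/fl;E8icre/+ replicate 1, 7.57 in replicate 2, 46.6 in Havcr2fl/fl replicate 1 and 117 in replicate 2. It was found in 54 of 175, 3 of 64, 7 of 26 and 44 of 99 cells. In other cycling cells it stood at 55.1, 1.28, 54.1 and 98.8 CPM and in not cycling cells at 46.9, 10.3, 47.3 and 112. In all 3 classes the first of these libraries thus held Havcr2 at the level of the libraries labelled as without Cre, while replicate 2 of the same label was far lower, so the gene goes against the label of replicate 1 and every difference by genotype below rests on a label in doubt. Whether the tags lie outside the deleted part of the gene was not tested. The log2 difference by genotype was -1.07 ± 0.47 (edgeR adjusted p = 0.97). Against not cycling and other cycling cells, Havcr2 in S phase cells differed by 0.18 (edgeR adjusted p = 0.36) and 0.22 (edgeR adjusted p = 0.48).

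Between the libraries labelled Havcr2fl/fl;E8icre/+ and Havcr2fl/fl, S phase cells differed in 5 of 6979 genes counted, all lower (0.0716%) and none higher, and 338 genes had an unadjusted p under 0.05 in edgeR. Both libraries labelled Havcr2fl/fl;E8icre/+ were above both others in 17.5% of genes and below both in 14.8%. DESeq2 called 0 genes. None of the cell cycle or T cell state genes was among the 5. Pcna differed by 0.12, and by -0.067 without Havcr2fl/fl;E8icre/+ replicate 1. Mki67 stood at 479, 266, 159 and 339 CPM and Top2a at 555, 278, 208 and 449, and the genotypes overlapped in both. Their log2 differences of 0.56 and 0.33 were 0.088 and -0.25 without Havcr2fl/fl;E8icre/+ replicate 1, and 0.18 and -0.070 without Havcr2fl/fl replicate 1. The genotype difference in S phase cells was also set against that in not cycling cells by an interaction term, which passed for 8 of 9498 genes (0.0842%), 2 higher (0.0211%) and 6 lower (0.0632%). The 2 higher ones are cell cycle genes, which the not cycling cells were chosen to lack, so they are no result. Among the 6 lower ones Mpo, Cd74, Mcpt8 and Tcf7 had lower values in both libraries labelled Havcr2fl/fl;E8icre/+ than in both others in S phase cells. Tcf7 rested on 6, 2, 5 and 21 UMIs. In other cycling cells Tcf7 went the other way, at 31.5, 39.8, 30.6 and 26.4 CPM. Its call was lost without Havcr2fl/fl replicate 2, with stricter cell filters and with at least 4 of the 5 rule genes.

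The 5 genes were Chil3, Mpo and Ctsg, which belong to granulocytes and their progenitors, Blvrb, an enzyme of heme breakdown abundant in red cells, and Cd74, which chaperones MHC class II. Chil3 had 6, 1, 8 and 76 UMIs in 2, 1, 1 and 2 cells, and 75 of the 76 lay in 1 cell (-4.72 ± 0.61, edgeR adjusted p = 0.00035). Mpo had 12, 1, 72 and 25 UMIs, of which 70 of the 72 and 22 of the 25 lay in 1 cell each (-4.37 ± 0.59, edgeR adjusted p = 0.00043). Ctsg had 38, 2, 33 and 95 UMIs, and 94 of the 95 lay in 1 cell (-3.02 ± 0.42, edgeR adjusted p = 0.00043). These 3 calls thus rested on 1 or a few cells.

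Blvrb had 6, 5, 15 and 28 UMIs in 6, 4, 5 and 21 cells, with 11 of the 15 in 1 cell and at most 4 of the 28 in any 1 cell (-3.21 ± 0.48, edgeR adjusted p = 0.0012). Cd74 had 48, 15, 21 and 70 UMIs in 23, 10, 8 and 14 cells, with 53 of the 70 in 1 cell (-1.81 ± 0.33, edgeR adjusted p = 0.019). When the 2, 1, 2 and 2 S phase cells with at least 3 of 12 myeloid genes were left out, an alternative chosen after seeing the data, 1 call was left, Blvrb (-3.34). In not cycling cells Blvrb stood at 9.89, 3.55, 3.11 and 71.8 CPM, with 140 UMIs in 120 cells of Havcr2fl/fl replicate 2. That library also had at least 3 erythroid genes in 40 of 99 S phase cells and in 27.9% of not cycling cells, against 4.61%, 8.32% and 11.2% of not cycling cells in the others, and the part of erythroid RNA in the Blvrb call was not tested.

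**Figure D5:**
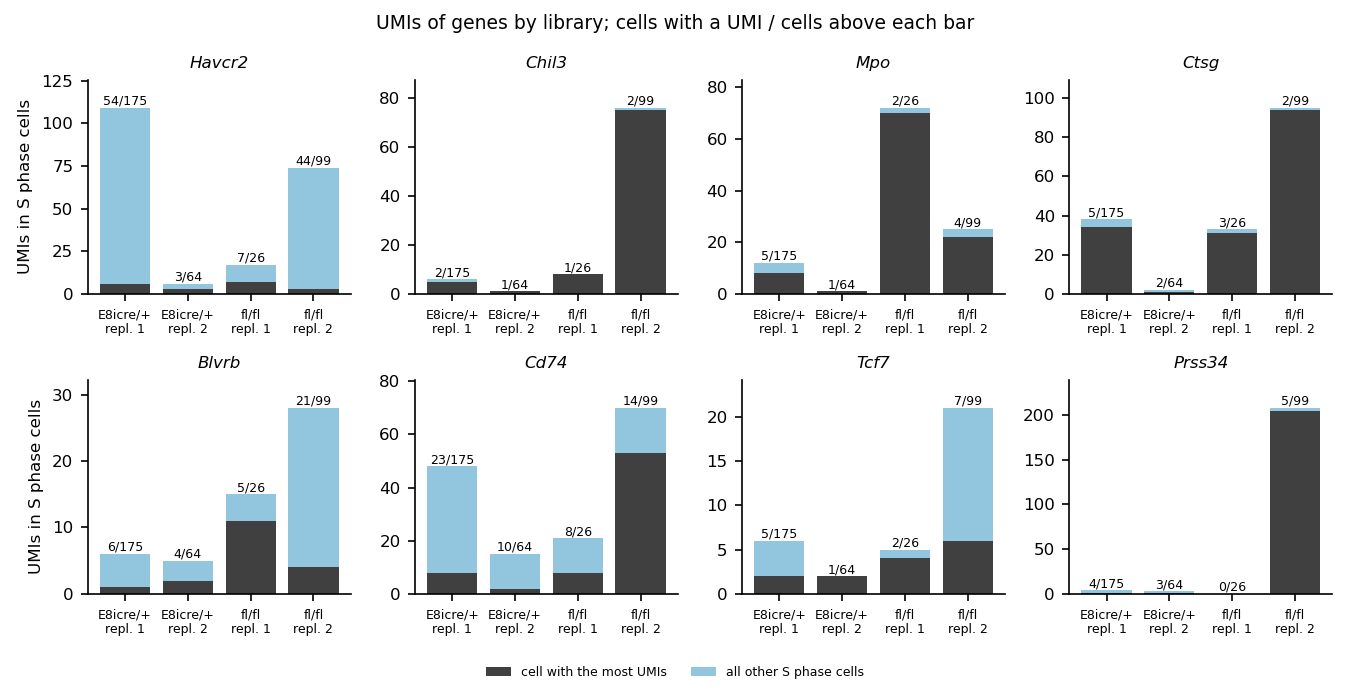
UMIs of 8 genes in S phase cells of each library, with the cell that holds most of them in dark and all other cells in light, and cells with a UMI of all S phase cells as text. For Chil3, Mpo and Ctsg a single cell holds most of the UMIs in the Havcr2fl/fl libraries (75 of 76, 70 of 72 and 94 of 95 in the highest ones), while Havcr2 is spread over 54 of 175 cells of the library labelled Havcr2fl/fl;E8icre/+ replicate 1.

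Genes of other cell types were present in S phase cells. The erythroid list summed to 2454, 3456, 17837 and 3462 CPM, led by the globin gene Hbb-bs in every library, so Havcr2fl/fl replicate 1 stood apart. In that library 5 of 26 S phase cells had at least 3 of the 11 erythroid genes, and in Havcr2fl/fl replicate 2 it was 40 of 99. Klf1 was at 0 by the rule, and the erythroid factor Gata1 and receptor Epor were also at 0 in Havcr2fl/fl;E8icre/+ replicate 2 and in Havcr2fl/fl replicate 1. Against not cycling cells, 4 of 7 erythroid genes rose and 1 fell and 5 of 10 myeloid genes rose and 2 fell, with none of either list higher in 4 of 4 libraries. Of all genes counted there, 19.7% were higher and 24.3% lower. In the same comparison 2 of 2 B cell genes (Ighm and Igkc) fell, and 2 of 4 heat shock and immediate early genes (Junb and Hsph1) fell. All 4 sex-linked genes counted also fell, with a median log2 difference of -0.63, and 1 of them was lower in 4 of 4 libraries. Of the UMIs of the myeloid gene Lyz2 in S phase cells, 1 cell each held 92 of 97 and 189 of 191 in the 2 libraries with most. S100a8, a neutrophil gene, was at 10.1, 7.57, 5.48 and 4.72 CPM in S phase cells and 154, 11.0, 1473 and 10.8 in not cycling cells, and 1 cell each held 435 of 483 and 2320 of 2369 of its UMIs in the 2 high not cycling sums, so its low log2 difference (-4.74) rested on 2 cells. The myeloid and progenitor list summed to 248, 40.4, 647 and 671 CPM with Cd34 at 0 in every library, and the natural killer list to at most 3.79 CPM. Of the cells outside the CD8+ Tc gate, 62.1% carried at least 3 erythroid genes although the labels name T cells. The labels describe isolation with a pan-T kit and the study's text describes a sort of donor cells, and which was used for these libraries could not be settled here. The part of these RNAs in the results was not tested, beyond the calls without myeloid-marked cells.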

How the data were processed

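The 4 libraries were measured by 10x 3′ single-cell RNA sequencing with an antibody tag for donor H2-Kb, and each is 1 replicate of the genotype its label gives. The authors deposited UMI counts per gene and cell barcode, not normalized, and the submitters' processing notes name Cell Ranger 6.1.2 and build mm10. How they filtered barcodes is not given in the sources used here. All 32285 genes were read, and cells were filtered and gated as the results state, with no doublet removal in the main values. Counts were summed per library and class (12 sums) and tested with edgeR 4.0.16 in R 4.3.3 (TMM, filterByExpr, quasi-likelihood test, Benjamini-Hochberg adjustment over all genes tested, threshold 0.05). Class comparisons had the mouse as a block, and the genotype comparison had none. The 13 genes of the rule, Mki67 and Top2a stayed out of all counts of genes. The share was tested by an exact permutation test over libraries. CPM are counts over TMM-adjusted summed UMIs.

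Depths stand in the results, Wilson intervals cover counting error only, and ambient RNA was not removed. Genes were named by a fixed rule: Pcna, Mki67, Top2a, Havcr2 and the rule genes, per list up to 4 with the largest absolute log2 difference (past the threshold in lists outside the cell cycle), the 6 highest and 6 lowest outside the cycle lists with at least 20 CPM in the higher class, and by genotype those with the smallest p. Other named genes, such as Slamf6, Lef1, Myb, Ccl5, Gzma and Tnfrsf9 against not cycling cells, were chosen after their values were seen. Promoters were taken from RefSeq, build GRCm38.p6. Scrublet, through scanpy 1.11.5, called 2, 5, 9 and 109 doublets, so an alternative removed the expected number per library instead. The members, gene lists and tests were chosen with earlier results of these data known. Tests were run on simulated data first. Some genes that the naming rule selects are not reported here.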

Additional observations from a re-analysis of the deposited data

Results flagged for a closer look

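The effect of genotype differed between S phase and not cycling cells for 8 of 9498 genes (0.0842%) by edgeR's interaction test with Benjamini-Hochberg adjustment, 6 lower and 2 higher, of which the 2 higher are cell cycle genes and no result, as given below. Each value is the log2 difference by genotype in S phase cells minus that in not cycling cells. Of 3 genes of basophils and neutrophil progenitors, Prss34 differed by -6.01 ± 0.70 (adjusted p = 0.00011), Mpo by -4.09 ± 0.60 (adjusted p = 0.0028) and Mcpt8 by -3.64 ± 0.71 (adjusted p = 0.046). In S phase cells Prss34 had 4, 3, 0 and 208 UMIs, 204 of them in 1 cell, and Mcpt8 had 69 UMIs of Havcr2fl/fl replicate 2 in 1 cell. Cd74, of MHC class II, differed by -1.99 ± 0.34 (adjusted p = 0.016).

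Tcf7 differed by -3.75 ± 0.58 (adjusted p = 0.0043). It stood at 3.57, 2.52, 13.7 and 33.1 CPM in S phase cells and at 95.1, 148, 77.7 and 57.0 in not cycling cells, so both libraries labelled Havcr2fl/fl;E8icre/+ were below both others in S phase cells and above both in not cycling cells. In other cycling cells Tcf7 stood at 31.5, 39.8, 30.6 and 26.4 CPM, so both were above both others there too. The S phase values rest on 6, 2, 5 and 21 UMIs. Xcl1 differed by -2.74 ± 0.50 (adjusted p = 0.029). It stood at 5.35, 8.83, 2.74 and 36.2 CPM in S phase cells and at 57.7, 194, 19.3 and 74.9 in not cycling cells, and the genotypes overlapped in both. The S phase values rest on 9, 7, 1 and 23 UMIs, with 21 of the 23 in 2 cells, and in not cycling cells of Havcr2fl/fl replicate 2 a single cell held 93 of 146 UMIs.

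Birc5, a mitotic survival gene, differed by 2.295 and the histone gene Hist1h2ab by 2.68. Both are cell cycle genes and the not cycling cells were chosen for lacking such genes, so these 2 values are a description with no test, and in not cycling cells they rest on 9, 6, 5 and 42 UMIs of Birc5 and on 4, 7, 8 and 20 of Hist1h2ab. Birc5 was at 88.6, 66.9, 35.6 and 123 CPM in S phase cells and at 2.87, 1.94, 3.11 and 21.6 in not cycling cells. Hist1h2ab was at 141, 194, 30.2 and 186 CPM in S phase cells and at 1.3, 2.3, 5.0 and 10.3 in not cycling cells. With the myeloid-marked cells left out, chosen after seeing the data, the calls of Tcf7 and Xcl1 were left of the 6 lower ones. Both were lost with stricter cell filters, with at least 4 of the 5 rule genes and without Havcr2fl/fl replicate 2, and Xcl1 also without Havcr2fl/fl;E8icre/+ replicate 2 and with DESeq2.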

How the results depend on the processing

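The share of S phase cells by genotype (log2 ratio 0.46) ranged from 0.03 to 0.80 when each library was left out in turn and was 0.44 with the replicate number as a block (1.11 within number 1 and -0.22 within number 2). Genes called by genotype in S phase cells (5) numbered 0 with DESeq2, with at least 1000 genes and at most 5% mitochondrial UMIs, with at least 4 of the 5 rule genes and with thinned cells, 47 with no filter on low counts, 3 with doublets left out, 1 with the replicate block, 1 with myeloid-marked cells left out and 24, 19, 20 and 10 when each library was left out, in the order of the results. The lone library left in an arm is then assumed to vary like the others. Calls against not cycling cells (3899) numbered 2367 with DESeq2, 1483 with thinned cells and 2763 to 3724 when each library was left out. Calls against other cycling cells (844) numbered 304 with DESeq2, 299 with no mouse block, 252 with thinned cells and 532 to 707 when each library was left out. The lowest were without Havcr2fl/fl;E8icre/+ replicates 1 and 2 (532 and 538). Differences of the genotype effect between classes (8) numbered 5 with DESeq2 size factors, 2 with DESeq2, 27 with no filter, 1 with stricter cell filters, 1 with at least 4 of the 5 rule genes, 4 with myeloid-marked cells left out and 45, 25, 37 and 35 when each library was left out. The causes were not tested, and leaving out a library lowered the counts between classes but raised those by genotype. Of the single genes named outside the rule, and of Mki67 and Top2a by genotype, 3 changed direction: Pcna by genotype (0.12) was -0.067 without Havcr2fl/fl;E8icre/+ replicate 1 and up to 0.34 without each other library, Top2a by genotype (0.33) ranged from -0.25 without Havcr2fl/fl;E8icre/+ replicate 1 and -0.070 without Havcr2fl/fl replicate 1 to 1.07 without Havcr2fl/fl replicate 2, and Ccl5 against other cycling cells was -0.0095 with thinned cells. Deviations of same-numbered libraries had a correlation of r = -0.05 over 6991 genes. With 2 libraries per genotype the second pair mirrors the first, so this is 1 value and not evidence from 2 pairs. In the main values the number was not used as a pairing. Havcr2fl/fl replicate 1 had the fewest S phase cells (26), and whether this limits the genotype comparisons more than the other libraries do was not tested.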

Other observations

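The 61 S phase cells with neither Mki67 nor Top2a were 30, 11, 2 and 18 in the 4 libraries. Inside the gate, Mki67 stood at 479, 266, 159 and 339 CPM, against 1264, 1085, 979 and 1198 in other cycling cells, and at 2000 UMIs per cell it was found in 34.2% ± 6.2 and 68.5% ± 6.2 (SD, n = 4). Mki67 chose the other cycling cells, so this is a description. Eomes, a factor of effector and exhausted CD8+ Tc, was found in 30.8% ± 7.4 of thinned S phase, 30.1% ± 2.3 of other cycling and 21.0% ± 6.4 of not cycling cells, and Cxcr6, a receptor of tissue-homing cells, in 35.8% ± 9.2, 36.8% ± 4.3 and 54.5% ± 3.9. Trbc1 was found in 71.7% of all S phase cells and in 31.3% of those of Havcr2fl/fl replicate 2. Median UMIs per S phase cell were 8508, 11187.5, 14615 and 5844, so that library was the shallowest. Whether its low share is particular to S phase cells was not tested. No hypothesis was tested on these values.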
